A study of Rattus norvegicus with 6 samples.

Results

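The interleukin-1 (IL-1) system of rat subchondral bone, the bone beneath the joint cartilage, was described through 10 genes chosen by name: the cytokines Il1a, Il1b and Il18, the antagonist Il1rn, the receptors Il1r1 and Il1r2, and the inflammasome genes Nlrp3, Pycard, Casp1 and Gsdmd. Each name had exactly 1 row among the 30600 rows with values. Bulk RNA of the tissue was sequenced in 6 libraries, named here by their titles (S23, S21, S20, S13, S12 and S10). The series set out to compare rats kept at low and at normal temperature. No label used here assigns a library to a temperature, a genotype, an age or a sex, so the libraries form no groups, every value stands for a library by itself, and no effect of cold was tested. Nothing in the labels says whether the libraries came from separate animals.

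IL-1 alpha and IL-1 beta bind the receptor encoded by Il1r1 and, through the adaptor MyD88, turn on NF-kappaB and a set of inflammatory genes. Il1rn encodes a secreted antagonist that occupies the same receptor without signalling, and Il1r2 a decoy receptor that binds the cytokines but lacks the signalling domain. IL-1 beta and IL-18 are made as inactive precursors, which caspase-1 cuts after an inflammasome has formed from a sensor such as NLRP3 and the adaptor ASC (Pycard). Caspase-1 also cuts gasdermin D (Gsdmd), whose fragment forms pores in the cell membrane. In bone, IL-1 is known as a stimulus of osteoclasts and of matrix breakdown, and marrow neutrophils and monocytes are known sources of it.

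Il1a and Il1b are neighbouring genes in the RefSeq assembly GRCr8, while Il1rn lies elsewhere on the same chromosome beside Il1f10. The ratio of Il1b to Il1a RNA within a library had a median of 102, with only 9 to 29 counts of Il1a per library. The start regions of Il1b, Il1a and Il1rn are shown so that the agonist genes and the antagonist gene can be compared. Each line gives the 250 bases before the annotated start, 5′ to 3′ on the gene's strand, from RefSeq with the build GRCr8. The regions are chr3:137036582-137036831 on the minus strand for Il1b, chr3:136990018-136990267 on the minus strand for Il1a and chr3:27520072-27520321 on the plus strand for Il1rn. The build behind the expression values is not settled, so these positions apply to the sequences only. Capitals mark matches, on either strand, to TATAAA, the core of a TATA box, and to TTNNGNAA, a pattern of the kind bound by C/EBP factors.
Il1b: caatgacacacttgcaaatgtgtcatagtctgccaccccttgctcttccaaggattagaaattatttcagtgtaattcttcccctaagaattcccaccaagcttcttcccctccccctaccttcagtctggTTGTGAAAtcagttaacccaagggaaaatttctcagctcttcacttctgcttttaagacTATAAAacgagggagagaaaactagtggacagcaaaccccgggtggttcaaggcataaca
Il1a: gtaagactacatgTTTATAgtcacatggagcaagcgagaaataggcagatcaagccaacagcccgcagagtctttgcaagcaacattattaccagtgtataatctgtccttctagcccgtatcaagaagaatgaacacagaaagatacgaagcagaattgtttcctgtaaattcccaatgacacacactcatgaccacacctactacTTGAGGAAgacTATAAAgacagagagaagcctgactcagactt
Il1rn: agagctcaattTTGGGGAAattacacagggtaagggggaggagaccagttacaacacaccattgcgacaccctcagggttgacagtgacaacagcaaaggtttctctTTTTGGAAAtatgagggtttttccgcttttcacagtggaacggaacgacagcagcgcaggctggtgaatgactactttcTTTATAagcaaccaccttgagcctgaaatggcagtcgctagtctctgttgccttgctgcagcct

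All 3 regions held both motifs. The TATAAA match on the gene's own strand began 60 bases before the start in Il1b and 32 bases before it in Il1a, and Il1rn had its match on the opposite strand, 64 to 59 bases before the start. Il1rn held 3 matches to TTNNGNAA, 2 of which overlap, and Il1b and Il1a held 1 each. Among all 33469 RefSeq start regions of the same length, 12.9% held TATAAA and 37.2% held TTNNGNAA. The kappaB motif, found in 6.33% of them, was in none of these 3 windows and had 1 match in the window of Il1r1. Start regions were found for 8 of the 10 genes, all but Il1r2 and Gsdmd. A match is a description of the letters and says nothing of whether a factor binds there.

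Of the 10 genes, all but Il1a, 9 in number, reached a median level of 1 FPKM, a unit in which fragments are divided by transcript length and library size. Across all annotated genes 52.7% reached that level. By median FPKM the order was Pycard (61.5), Il1r2 (50.1), Il1rn (29.1), Casp1 (21.1), Il1b (14.5), Gsdmd (9.76), Nlrp3 (8.02), Il18 (6.30), Il1r1 (2.46) and Il1a (0.180). The median of the 9 expressed genes was 14.5 FPKM, against 9.11 FPKM over the 11625 annotated genes that reached 1 FPKM by median, called expressed below. Neighbours in this order overlapped in their ranges over the libraries, except Il1r1 and Il1a. Within a library, Il1r2 exceeded Il1rn, Il1rn exceeded Casp1, Il1b exceeded Gsdmd and Il18 exceeded Il1r1 in all 6 libraries. Pycard exceeded Il1r2 in 4 of 6, Casp1 exceeded Il1b in 5 of 6, Gsdmd exceeded Nlrp3 in 4 of 6 and Nlrp3 exceeded Il18 in 5 of 6.

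**Figure D1:**
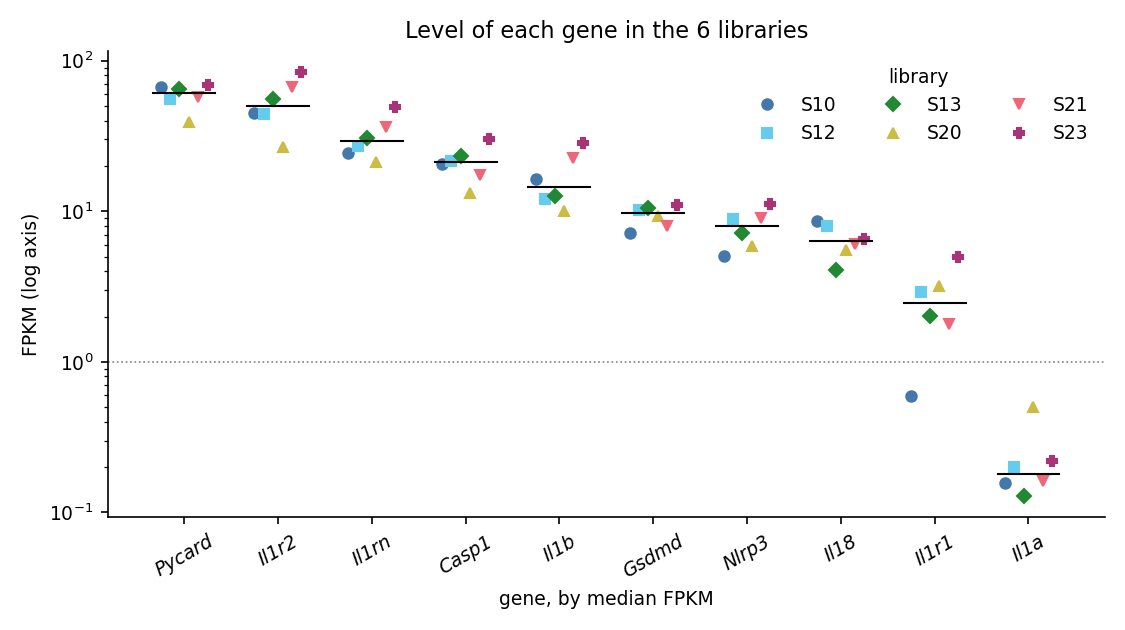
FPKM (vertical log axis) of the 10 genes in the 6 libraries. Each symbol is a library, the black bar is the median over the libraries and the dotted line marks 1 FPKM. S23 gives the highest point in 8 of the 9 genes whose median lies above the dotted line, and Il1a lies below the line in every library.

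All 9 osteoblast and osteocyte markers and 4 of 6 osteoclast markers were expressed. The libraries themselves differed in ways that touch these genes. Total counts ran from 39990624 to 59200981, and the 4 named globin rows took 10.4% of the counts in S23, 27.6% in S10 and 18.9% to 20.8% in the others. S10 had the lowest value of 60.1% of the expressed genes, and its median gene lay 0.31 below the gene's own median on the log2(FPKM + 1) scale. In that library the deviation went with transcript length, from 0.14 above in the bin of genes of 544 to 839 bases to 0.66 below in the longest of 20 bins. S20 and S12 had the opposite trend. Between the same bins it went from 0.25 below to 0.50 above in S20 and from 0.16 below to 0.42 above in S12. TMM scaling, which lines libraries up on the bulk of the genes, moved the median gene of S10 to 0.01, so each gene's levels below are given as deposited, with the main changes of order under TMM scaling. All 11 expressed mature neutrophil markers were highest in S23, against 24.0% of all expressed genes. Their summed level was 72831 FPKM in S23 against 16455 (S20) to 42917 (S21) FPKM in the others. S100a8 and S100a9 made up most of the sum in every library. The twelfth marker, Ltf, had at most 0.0301 FPKM.

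Il1b, the main secreted IL-1 agonist of myeloid cells, was most abundant in S23 and S21. From high to low, its levels were 28.3 FPKM in S23, 22.5 in S21, 16.3 in S10, 12.7 in S13, 12.1 in S12 and 10 FPKM in S20, from 626 to 2038 counts. As deposited, S23 and S21 stood above the other libraries, S12 and S13 were alike within counting error, and S20 was lowest. The highest level was 2.82 times the lowest (2.57 to 3.08, exact 95% binomial interval, Clopper-Pearson, which covers counting error only). TMM scaling kept S23 highest (25.7 FPKM) and S20 lowest (8.90 FPKM) and raised S10 to 21.8 FPKM, near S21 (23.1 FPKM).

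Il1a, which encodes the IL-1 agonist that is active as a precursor and is known as an alarm signal of damaged cells, was near the limit of detection. S20 had 29 counts, S23 15, S21 14, S12 12, S13 10 and S10 9, or 0.128 to 0.504 FPKM. S20 stood out, at a CPM (counts scaled to library size) of 0.712 (0.477 to 1.02, exact 95% binomial interval), and its interval overlapped only that of S23 (0.181 to 0.535 CPM). S20 was thus the library with the most Il1a and the least Il1b. The highest Il1a level was 3.92 times the lowest (1.86 to 9.03), or 1.71 times without S20. Il1b exceeded Il1a 19.9-fold in S20 and 61.0-fold to 140-fold in the other libraries.

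Il18, the other cytokine that caspase-1 matures, did not follow Il1b. It had 8.67 FPKM in S10, 8.0 in S12, 6.50 in S23, 6.10 in S21, 5.50 in S20 and 4.10 FPKM in S13. S10 and S12 were the highest libraries and S13 the lowest, with 243 to 399 counts behind the values. The highest level was 2.12 times the lowest (1.80 to 2.49, exact 95% binomial interval). With values rescaled to a common sum, S12 rather than S10 was highest, and TMM scaling put S21 (6.27 FPKM) above S23 (5.91 FPKM). The ratio of Il1b to Il18 ran from 1.52 in S12 to 4.34 in S23, and the intervals of S12 (1.34 to 1.72) and S23 (3.87 to 4.89) lay apart.

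The antagonist Il1rn exceeded Il1b in every library. It reached 49.4 FPKM in S23, 36.5 in S21, 30.9 in S13, 27.3 in S12, 24.2 in S10 and 21.3 FPKM in S20, from 1938 to 5205 counts. S23 was highest and S20 lowest, as for Il1b, with a ratio of 2.32 between them (2.20 to 2.45, exact 95% binomial interval). With values rescaled to a common sum S10 was lowest, at 20.5 FPKM, while TMM scaling put S10, at 32.4 FPKM, above S13 (32.0 FPKM) and S12 (23.8 FPKM). Il1rn over Il1b, a ratio that no scaling between libraries can change, was 2.43 in S13, 2.25 in S12, 2.12 in S20, 1.75 in S23, 1.62 in S21 and 1.49 in S10, with a median of 1.93. S12, S13 and S20 formed the higher range and S10, S21 and S23 the lower: the lowest bound among the former was 1.94 (S20) and the highest bound among the latter 1.84 (S23). The rows are 2228 bases for Il1rn and 1525 bases for Il1b, as implied by counts and FPKM, and in S10 genes of those lengths lay 0.26 and 0.07 below their medians, in S23 0.06 and 0.07 above. The part of length in the ratio was not tested.

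The decoy receptor Il1r2 was far more abundant than the signalling receptor Il1r1. Il1r2 had 84.2 FPKM in S23, 67.1 in S21, 55.6 in S13, 44.7 in S10, 44.3 in S12 and 26.7 FPKM in S20, and its median exceeded that of 87.9% of the expressed genes. S20 was lowest and S23 highest, 3.15 times apart (2.99 to 3.33, exact 95% binomial interval), or 1.90 times without S20. TMM scaling put S10 (59.8 FPKM) above S13 (57.5 FPKM) and kept S23 highest and S20 lowest. Il1r1 had 4.97 FPKM in S23 (858 counts), 3.20 in S20, 2.90 in S12, 2.03 in S13, 1.79 in S21 and 0.597 FPKM in S10 (90 counts). S10 stood well below the rest, and S23 above them, 8.32 times apart (6.69 to 10.5), or 2.78 times without S10. Il1r1 is a long transcript of 3706 bases, and in S10 genes of that length lay 0.48 below their medians on the log2(FPKM + 1) scale. Under a length correction added after the data were seen, Il1r1 spanned 1.38, from 0.54 below its median in S10 to 0.85 above it in S23. The median range of all expressed genes was 0.58 under that correction. The part of length in the Il1r1 level was not tested. Stromal cells are known carriers of Il1r1, and the summed level of 6 fibroblast markers was 137 FPKM in S10 and 162 to 217 FPKM in the others. The part of stromal content in the Il1r1 level was not tested, and in bulk tissue fewer cells of a type cannot be told apart from less RNA per cell.

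The excess of decoy over signalling receptor varied widely. Il1r2 over Il1r1 was 74.8 in S10, 37.5 in S21, 27.4 in S13, 16.9 in S23, 15.3 in S12 and 8.35 in S20, with a median of 22.2. Only the intervals of S12 (13.9 to 16.9) and S23 (15.8 to 18.2) overlapped. S23, which had the most of both receptors, and S12 thus had like ratios. The rows are 1572 bases for Il1r2 and 3706 bases for Il1r1. Genes of those lengths lay 0.07 and 0.48 below their medians in S10, and 0.05 below and 0.25 above them in S20. The part of length in the receptor ratio was not tested. Il18bp, which encodes the soluble trap of IL-18 and is no member of the 10, was below Il18 in S10 (0.648) and S12 (0.760) and above it in S13 (1.40), S21 (1.26) and S23 (1.63), while in S20 the ratio of 1.12 had an interval that held 1 (0.936 to 1.34).

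**Figure D2:**
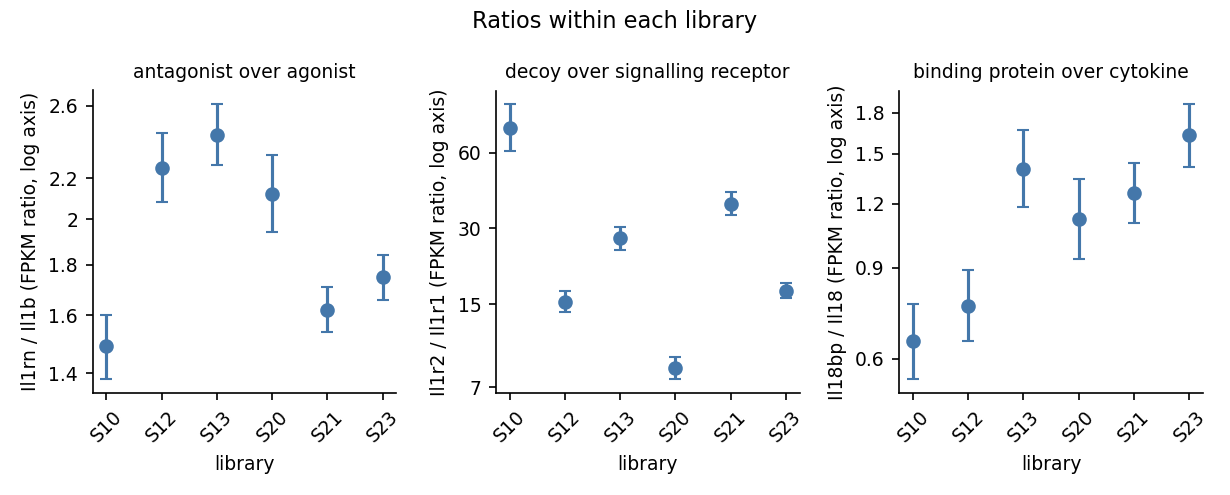
FPKM ratios within each library (vertical log axes): Il1rn over Il1b, Il1r2 over Il1r1 and Il18bp over Il18. Points are libraries and bars exact 95% binomial intervals, which cover counting error only. The receptor ratio spans 8.35 in S20 to 74.8 in S10, the antagonist ratio only 1.49 to 2.43. The ratios are not corrected for the libraries' trends with transcript length.

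Among the inflammasome genes, the adaptor Pycard was the most abundant in every library, and Nlrp3, the sensor, was below Pycard and Casp1 in every library and below Gsdmd in 4 of 6. Nlrp3 had 11.1 FPKM in S23, 9.09 in S21, 8.87 in S12, 7.18 in S13, 5.84 in S20 and 5.07 FPKM in S10. S10 and S20 were low and S23 high, 2.19 times apart (2.02 to 2.37, exact 95% binomial interval). Under TMM scaling S20 (5.18 FPKM) replaced S10 (6.78 FPKM) as the lowest library. Nlrp3 is the longest of the 10 transcripts, at 4194 bases, and genes of that length lay 0.52 below their medians in S10.

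Pycard had 69.5 FPKM in S23, 67.1 in S10, 65.3 in S13, 57.7 in S21, 56.1 in S12 and 39.4 FPKM in S20. As deposited, S20 was the single low library, and the other 5 lay between 56.1 and 69.5 FPKM. Under TMM scaling S20 was still lowest (34.9 FPKM), but the other 5 spread from 48.9 FPKM in S12 to 89.8 FPKM in S10. Genes of the length of Pycard lay 0.21 below their medians in S20, and the part of length was not tested. The deposited ratio of highest to lowest Pycard level was 1.77 (1.66 to 1.88, exact 95% binomial interval). S23 was highest as deposited, but TMM scaling put S10 first, at 89.8 FPKM against 63.2 FPKM in S23, and so did median-ratio scaling and a library size without the globin rows.

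Casp1, the protease of the complex, had 30.1 FPKM in S23, 23.2 in S13, 21.7 in S12, 20.5 in S10, 17.3 in S21 and 13.3 FPKM in S20. S23 was highest and S20 lowest, 2.27 times apart (2.10 to 2.45, exact 95% binomial interval), and S21, high for Il1b, was second lowest. With TMM scaling S10 and S23 both stood at 27.4 FPKM. Casp4 and Casp12, paralogs next to Casp1 in the RefSeq order, had medians of 6.04 and 0.303 FPKM, and the sources used here do not say how reads shared between such paralogs were counted.

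Gsdmd, the pore-forming substrate, was the steadiest of the 9 expressed genes. It had 11 FPKM in S23, 10.5 in S13, 10.2 in S12, 9.36 in S20, 8.04 in S21 and 7.12 FPKM in S10, 1.54 times apart at most (1.40 to 1.71, exact 95% binomial interval). S23, S13 and S12 formed the upper end, and TMM scaling put S13 highest (10.9 FPKM) and S21 lowest (8.26 FPKM). Casp1 over Gsdmd was 1.42 in S20 (1.29 to 1.56) and 2.87 in S10 (2.61 to 3.17). Pycard over Nlrp3 was 13.2 in S10 (12.3 to 14.3), 9.09 in S13 and 6.26 to 6.74 in the other 4. Both ratios thus differed between libraries by more than counting error. Pycard, at 1013 bases, is the shortest of the 10 transcripts and Nlrp3 the longest, and the part of the length trend of S10 in their ratio was not tested.

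Read together, 8 of the 9 expressed genes had their highest deposited level in S23, while 24.0% of all expressed genes were highest there. The exception was Il18, highest in S10 with 11.0% of all expressed genes and lowest in S13 with 4.09%. Under TMM scaling the count was 5 of 9 (Il1b, Il1rn, Il1r1, Il1r2 and Nlrp3), against 14.4% of all expressed genes, and without S23 the most that any library held was 4, in S21. The lowest level lay in S20 for 5 of 9 (Il1b, Il1rn, Il1r2, Casp1 and Pycard), against 17.1% of all expressed genes, and in S10 for 3 of 9 (Il1r1, Nlrp3 and Gsdmd), against 60.1%. The same 5 genes were both highest in S23 and lowest in S20, a pattern that 6.99% of all expressed genes had. A range of at least 1 on the log2(FPKM + 1) scale, a 2-fold difference in FPKM + 1, was reached by 5 of 9, Il1r1 (1.90), Il1r2 (1.62), Il1b (1.41), Il1rn (1.18) and Casp1 (1.13), and by 36.6% of all expressed genes. Nlrp3 and Il18, whose FPKM ratios of 2.19 and 2.12 are given above, did not reach it because 1 is added before the logarithm. Nlrp3 lay just under the threshold of 1, followed by Il18 (0.92), Pycard (0.80) and Gsdmd (0.56). The median range was 1.13 for the 9 genes and 0.83 for all expressed genes. The count of 5 became 3 without S20 and 3 without S23, and 7 under TMM scaling, where 29.6% of all expressed genes passed.

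**Figure D3:**
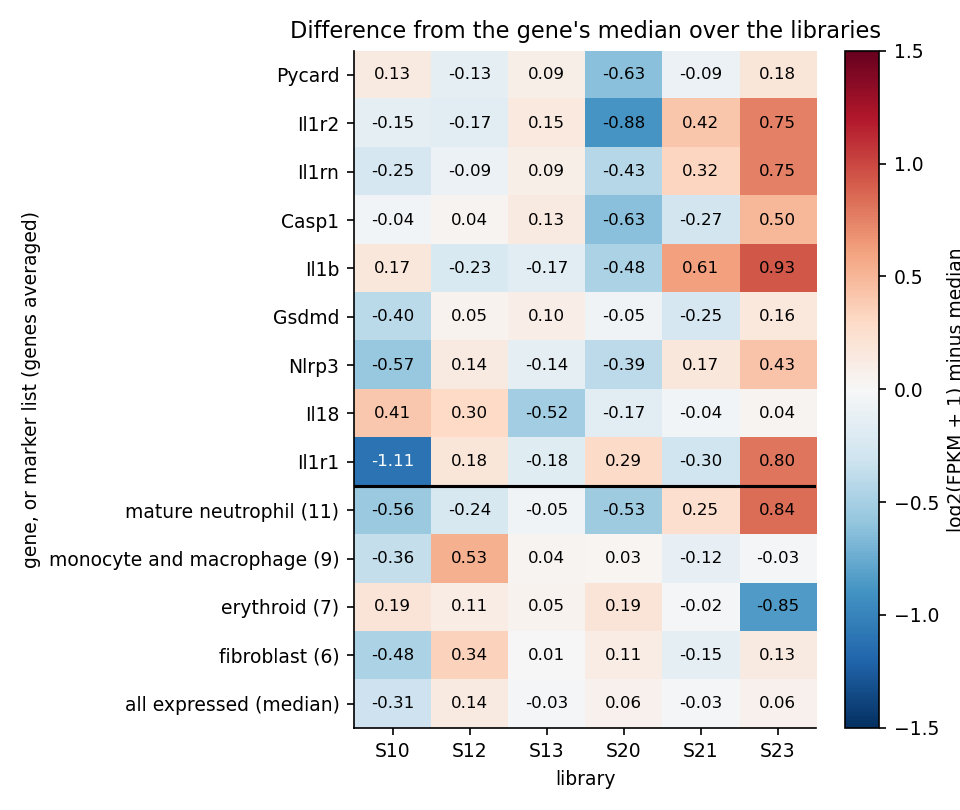
Each cell gives the deviation of a library from the gene's median, as log2(FPKM + 1), for the 9 expressed genes (upper rows) and, below the line, averaged over the expressed genes of 4 marker lists (number of genes in brackets) or as the median of all expressed genes. The Il1b row runs from -0.48 in S20 to 0.93 in S23, and the mature neutrophil row from -0.56 in S10 to 0.84 in S23.

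Il1b, Il1rn and Il1r2 were highest in the library with the most neutrophil marker RNA. The mean deviation of the 11 neutrophil markers was 0.84 in S23, 0.25 in S21, -0.05 in S13, -0.24 in S12, -0.53 in S20 and -0.56 in S10. The 3 genes followed that order in S23, S21 and S20, but not in S10. S10 had the lowest marker mean but more Il1b and Il1r2 than S12 and S20 and more Il1rn than S20. By summed marker level, S10 (42052 FPKM) instead stood near S21 (42917) and above S12 (20685) and S20 (16455). S100a8 and S100a9 made up most of that sum in S10, at 16939 and 19029 FPKM. Of the 11 markers, 6 were lowest in S10, against 60.1% of all expressed genes. In S10 the shortest marker, S100a8 (412 bases), had 16939 FPKM against a median of 13503. The longest, Csf3r (4475 bases), had 11.3 FPKM against a median of 32.1. The part of marker length in the S10 mean, and in the division below, was not tested. The 5 neutrophil precursor markers were all highest in S23 as well (mean deviation 0.76), against 24.0% of all expressed genes. The 9 monocyte and macrophage markers had their highest mean deviation in S12 (0.53) and a mean deviation of -0.03 in S23. Of the 9, 6 were highest in S12 and 2 in S23, against 24.0% of all expressed genes for S23. The share for S12 was not computed, and the median expressed gene lay 0.14 above its own median in S12. Divided by the geometric mean of the 11 neutrophil markers, Il1rn varied 1.33-fold over the libraries, Nlrp3 1.71-fold, Il1r2 1.74-fold and Il1b 1.86-fold, and each was then highest in S10 except Nlrp3, which was highest in S12. On the same scale Il1r1 varied 5.15-fold, Il18 3.63-fold, Pycard 2.63-fold, Gsdmd 2.23-fold and Casp1 2.12-fold. Over all expressed genes the median range on the log2 scale widened from 0.83 to 1.39 with this division, and that of the 9 genes went from 1.13 to 1.03. The part of neutrophil content in the levels was not tested.

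**Figure D4:**
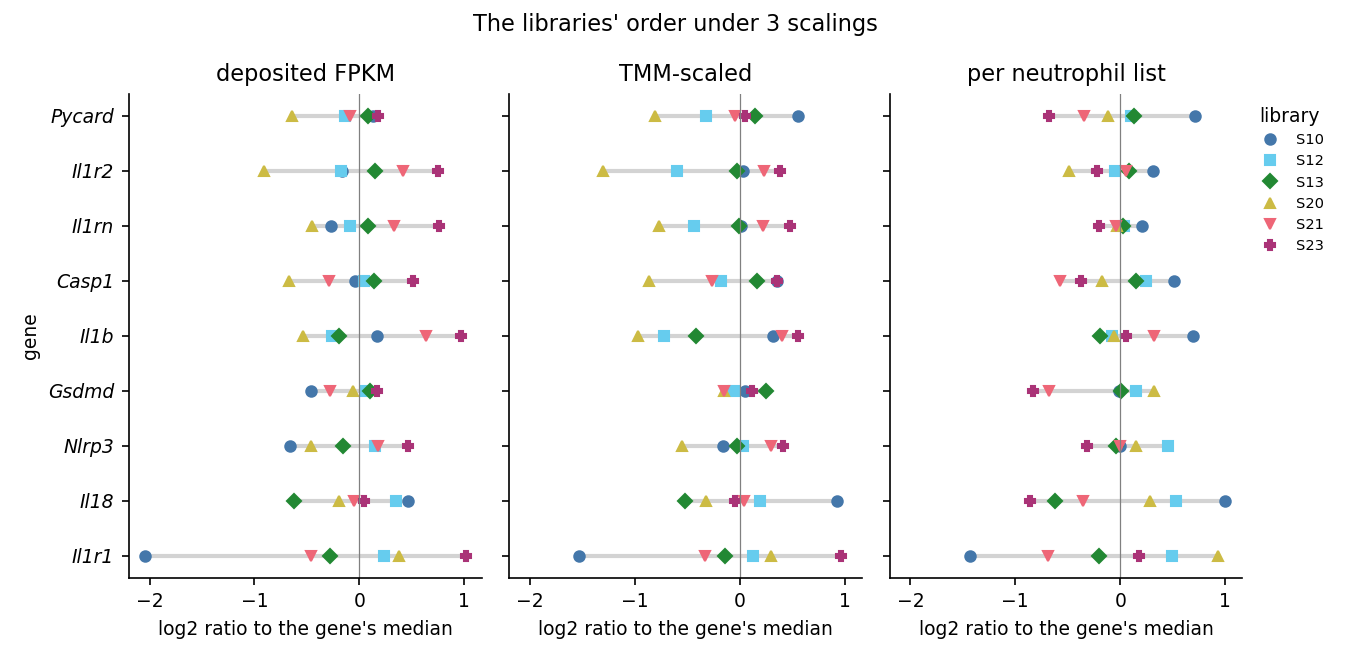
Log2 ratio of each library to the gene's median, for the 9 expressed genes, in deposited FPKM, in TMM-scaled FPKM and in FPKM divided by the geometric mean of 11 neutrophil markers. Symbols are libraries and grey lines span them. S23 lies at the right end for 8 genes in the first panel, for 5 in the second and for none in the third.

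The genes with the nearest profiles were sought for Il1b and for the other 4 genes with a range of at least 1, by the largest difference in any of the 6 libraries between 2 genes' deviations from their medians on the log2(FPKM + 1) scale. For Il1b these were Lrg1 (0.21), Padi4 (0.23), a histone-citrullinating enzyme of neutrophils, and Lsp1 (0.25), a leukocyte actin-binding protein. For Il1rn they were Arhgap9 (0.06), Fpr2 (0.07), a formyl peptide receptor of phagocytes, and Jaml (0.09). For Il1r2 they were Fcgr2a (0.18), an immunoglobulin receptor, Qpct (0.21) and Cebpd (0.22), a C/EBP factor. The nearest to Il1r1 were Myof (0.15), Pi4k2a (0.16) and Ankrd28 (0.16), and the nearest to Casp1 were Coa6 (0.17), LOC108349606 (0.18) and Gskip (0.19). Il1rn had 183 expressed genes within 0.3 of its profile, against 87 for Casp1, 27 for Il1r1, 16 for Il1b and 13 for Il1r2. Likeness over 6 libraries is a description of these libraries.

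Of 7 ligands and antagonists of the family outside the 10 genes, 3 were expressed, against 52.7% of all annotated genes. They were Il18bp (6.12), Il36b (5.07) and Il33 (1.88), an alarm cytokine of stromal cells. Il36a, Il36g and Il1f10 had 0 counts in all libraries, which allows up to 3 counts in each, or 0.0507 to 0.0750 CPM, and Il36rn reached 0.0143 FPKM at most. Il36b ranged from 1.65 FPKM in S20 to 8.26 FPKM in S23. Of 7 further receptors 4 were expressed, against the same 52.7%. They included Il18rap (8.40), the accessory chain of the IL-18 receptor, and Il1rap (3.32), the accessory chain shared by the IL-1 receptors. Sigirr (3.01), a negative regulator, and Il1rl1 (1.99), the receptor of IL-33, passed as well. Of the 4, Il1rap and Il18rap spanned a range of at least 1, against 36.6% of all expressed genes. These went from 1.28 and 3.68 FPKM in S10 to 4.79 and 13.7 FPKM in S23. The shares of 52.7% and 36.6% also stand beside the counts of the lists that follow.

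All 16 genes of the signalling cascade behind the receptor were expressed, and 15 of them were lowest in S10, where 60.1% of all expressed genes were lowest and long transcripts most of all. The part of that trend in these counts was not tested. Irak1 (32.9), Tab2 (27.1), Myd88 (26.6) and Ikbkb (20.9) had the highest median FPKM. In 9 of the 16 the range was at least 1, against 36.6% of all expressed genes, with Tab3 (2.22), Ikbkg (1.80), Tab2 (1.57) and Map3k7 (1.49) widest, then Nfkb1 (1.29), Irak3 (1.17), Myd88 (1.14), Irak1 (1.03) and Tollip (1.03). The highest library was S20 for 6, S23 for 5, S12 for 4 and S21 for 1. S23 was highest for 24.0% of all expressed genes, and the shares of S20, S12 and S21 were not computed. Genes of the longest of the 20 length bins lay 0.50 above their medians in S20 and 0.42 above in S12. The part of length in these highest libraries was not tested. Myd88, the adaptor, went from 16.6 FPKM in S10 to 37.8 FPKM in S23, and Irak3, an inhibitor of the pathway in myeloid cells, from 5.70 to 14.1 FPKM.

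Of 15 other inflammasome sensors and regulators 13 had a row, Nlrp1b and Naip6 having none, and 10 reached a median of 1 FPKM. The highest were Txnip (78.5), a binding partner of NLRP3, Bcl10 (24.9), Card9 (20.4) and Mefv (13.2), which encodes the sensor pyrin. A range of at least 1 was seen in 5, Nek7 (1.48), Nlrc4 (1.35), Txnip (1.27), Mefv (1.23) and Nlrp12 (1.08), against 36.6% of all expressed genes. Of the 10, 5 were highest in S23 and 6 lowest in S10, against 24.0% and 60.1% of all expressed genes. Nlrc4 spanned 2.50 FPKM (S10) to 7.96 FPKM (S23), and P2rx7, the ATP-gated channel known to trigger NLRP3, had at most 0.156 FPKM.

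Among 8 other caspases, gasdermins and genes of membrane rupture 6 were expressed. Serpinb1a, an inhibitor of neutrophil proteases, had a median of 638 FPKM, Ninj1, which ruptures the membrane after pore formation, 49.4 FPKM, and Casp8, an initiator caspase, 10.7 FPKM. Serpinb1a and Gsdme, another gasdermin, had ranges of 1.65 and 1.29, and both were highest in S23, at 1078 and 4.57 FPKM. All 8 proteases known to cut IL-1 family cytokines were expressed, and they were led by the neutrophil enzymes Ctsg (916), Elane (603), Prtn3 (471) and Mmp9 (184). In 7 of the 8 the range was at least 1, against 36.6% of all expressed genes. Elane, Prtn3, Ctsg, Gzmb and Mmp9 were highest in S23, the highest library of 24.0% of all expressed genes, Capn1 in S12 and the mast cell chymase Cma1 in S10 (47.9 FPKM, against 10.7 FPKM in S23). Elane, Prtn3 and Ctsg are also precursor markers and Mmp9 is also a mature neutrophil marker, so these counts are not separate.

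Genes known to be switched on by IL-1 were uneven. Of 14 listed genes 13 had a row, all but Saa3, and 7 of them were expressed, led by Lcn2 (898), Mmp13 (157), Nfkbia (42.9) and Nos2 (5.87). In 5 of the 7 the range was at least 1, against 36.6% of all expressed genes: Nos2 (2.24), Ccl2 (1.99), Nfkbia (1.62), Tnfaip3 (1.48) and Lcn2 (1.14). The highest library was S23 for 4 of the 7, against 24.0% of all expressed genes, S10 for Mmp13, S12 for Tnfaip3 and S13 for Nfkbia. Nfkbia and Tnfaip3, the feedback inhibitors of NF-kappaB, were 66.7 and 3.48 FPKM in S23, behind 73.6 FPKM in S13 and 4.52 FPKM in S12.

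A group of low genes stood out in S23, named after their values were seen. Mmp3, the protease stromelysin-1, had 24.9 FPKM in S23 (1677 counts) and at most 0.983 FPKM elsewhere, 25.4 times the next library. Il6, Cxcl1, Cxcl2 and Ccl2, which encode a cytokine and 3 chemokines, had 2.11, 3.36, 0.657 and 6.61 FPKM in S23, which was 7.61, 4.57, 4.71 and 3.96 times the next library. Some of these rest on few counts, with 37 in S23 and 10 in the next library for Cxcl2, and 115 and 13 for Il6. The 5 genes were picked for their gap in S23, so its size cannot be weighed against that of other genes. In the other listed response genes highest in S23, the gap was 1.18 (Icam1) to 1.69 times (Nos2). In the 9 expressed IL-1 genes the highest library exceeded the next by 1.04 (Pycard) to 1.55 times (Il1r1). Csf3 had 0 counts in all libraries.

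**Figure D5:**
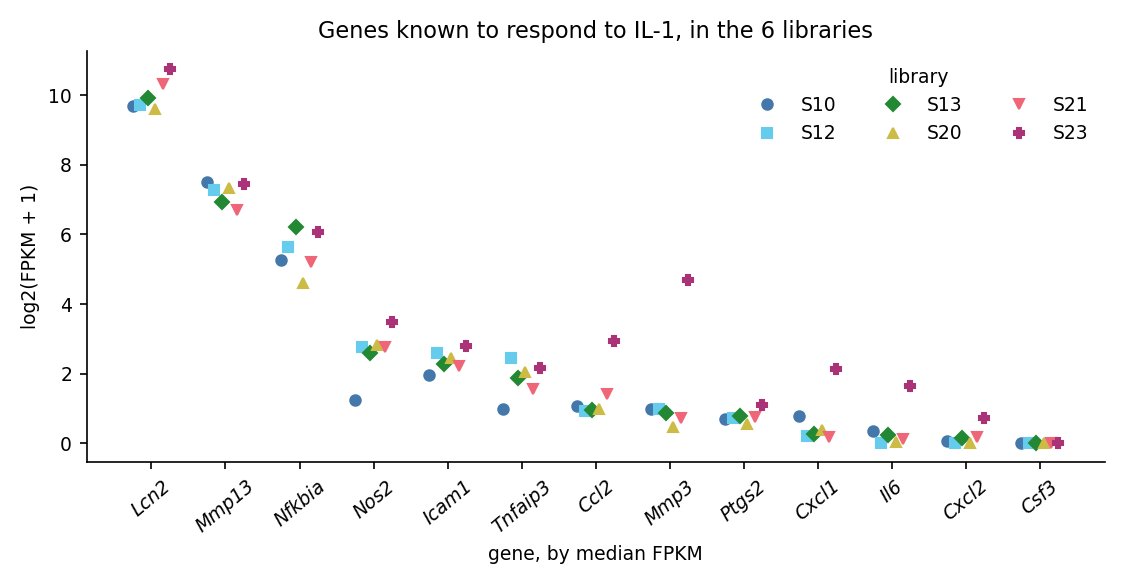
Log2(FPKM + 1) of 13 genes known to respond to IL-1, ordered by median FPKM. Symbols are libraries. Mmp3, Ccl2, Cxcl1, Il6 and Cxcl2 have S23 set apart above the other 5 libraries, while Mmp13 and Nfkbia do not.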

How the data were processed

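Bulk RNA of subchondral bone was sequenced in 6 libraries. Per the labels' protocols, 1.6 ug of RNA isolated with an RNeasy kit went into SMARTER libraries. Read counts per gene were deposited as whole numbers without normalization, and FPKM columns of the same libraries, also made by the authors, stand beside them, with sums of 811992 to 1047309. Which aligner and counter were used is not given in the sources. The submitters' processing notes name GRCm38 and mm10, both of mouse, and the gene IDs are of rat, so the build is not settled. Of 30610 rows 10 held no values.

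From these files, levels, ranges of log2(FPKM + 1) and ratios were computed per library with exact 95% binomial intervals, in pandas 2.3.3 and scipy 1.17.1. No test between groups was possible, and none was made. TMM factors came from edgeR 4.0.16. Alternatives were a pseudocount of 0.1, other FPKM minimums, 5 other scalings and leaving out each library. The length correction was added after the data were seen. The range formula, written out again, was tried on simulated counts with known fold changes and no length trend. Genes named were the 10 genes, the 4 highest of each pathway list, those with a range of at least 1 and the 3 nearest profiles. A listed gene that this rule names is not reported here. The genes and lists were chosen with earlier results of these data known.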

Additional observations from a re-analysis of the deposited data

How the results depend on the processing

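The number of genes at a median of 1 FPKM or more was 9 under all alternatives run. The number with a range of at least 1, which was 5, lay between 5 and 7 under other pseudocounts, filters and scalings, and between 3 and 5 with a library left out. The share of all expressed genes with that range moved far more, from 36.6% to 51.4% at a common sum and 19.8% with the length correction. After division by the neutrophil markers it was 83.8%, where 5 of the 9 genes passed. The number sharing a highest library, which was 8 in S23, was 5 under TMM scaling and 4 to 8 with a library left out. It stayed at 6 to 8 under the other alternatives, with S10 in place of S23 after division by the neutrophil markers. The share of all expressed genes highest in S23 ran from 14.4% under TMM scaling to 32.4% at a common sum. After division by the neutrophil markers, 26.6% were highest in S10. The median ratio of Il1rn to Il1b was 2.82 in counts, which are not per length, and 1.75 to 2.12 with a library left out, and that of Il1r2 to Il1r1 was 9.59 in counts and 16.9 to 27.4 with a library left out. The cause of the remaining shifts was not tested. No paired analysis was possible because the libraries have no groups. Il1a, with 9 to 29 counts, is limited by depth.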

Other observations

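Some genes of the pathway lists had a level in a library far from the other 5. Nlrp10, an inflammasome-related gene, had 4.47 FPKM in S21 (1018 counts) and at most 0.353 FPKM elsewhere, 12.7 times the next library. Tab3, a subunit of the kinase complex behind the IL-1 receptor, had 4.41 FPKM in S20, 2.04 times the next library, and 0.162 FPKM in S10. Gzmb, a granule protease of cytotoxic cells, had 0.0363 FPKM in S20 and 0.223 FPKM in S10, against 1.69 to 2.82 FPKM in the other libraries. Gsdmd over Gsdme ran from 2.41 in S23 to 6.55 in S13. These genes were picked after their values were seen.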
